A study of Saccharomyces cerevisiae with 8 samples.

Results

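The genes described here encode listed subunits of the mitochondrial respiratory chain and of the F1Fo-ATP synthase that are carried on nuclear chromosomes of Saccharomyces cerevisiae. The list is not complete, and the complex IV genes COX5A, COX5B and COX26 are described apart from it. The members were taken by gene name from a list that applies no threshold to measured values. The list was chosen with earlier results of these data known, so its counts beside all genes are descriptions. Of the 6328 genes measured 37 are members. They are 3 NADH dehydrogenases, 4 subunits of complex II (succinate dehydrogenase) and 9 of complex III (cytochrome bc1). The others are 7 of complex IV (cytochrome c oxidase) and 14 of the ATP synthase, its inhibitor protein included. Transcripts were measured by RNA-seq of rRNA-depleted total RNA in 8 libraries labelled as strain Y128, in 4 groups of 2. The first group lacked AZF1, which encodes a zinc-finger transcription factor, with a KanMX cassette in its place (azf1Δ). The second carried AZF1 on a MoBY 2.0 plasmid in addition to the chromosomal gene (AZF1 MoBY), the third carried that plasmid without an insert (MoBY control), and the fourth had neither change (WT). The labels name the strain Y128, whereas the study's methods name Y133, which is Y128 without its own KanMX cassette. The resistance gene of that cassette was at only 0.20 and 0.35 RPKM in WT, as in a strain that lacks it. Both plasmid groups grew with 200 mg/L of the antibiotic G418, and azf1Δ and WT without it, so that plasmid and drug cannot be told apart in any comparison of MoBY control with WT. All groups share a background that was engineered with xylose isomerase, xylulokinase and transaldolase genes, evolved on xylose, and lost the function of ISU1 (an iron-sulfur cluster scaffold), HOG1, GRE3 and IRA2. All were harvested in exponential growth on 2% xylose without oxygen, and the duplicates of a group were collected on different days.

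Yeast has no proton-pumping NADH dehydrogenase. Single-chain enzymes on the inner membrane pass electrons from NADH to ubiquinone, complex II does the same from succinate, complexes III and IV carry them on through cytochrome c to oxygen, and the ATP synthase uses the resulting proton gradient. Without oxygen the chain has no terminal acceptor, and transcription of its genes is known to depend on heme, carbon source and the Hap2, Hap3, Hap4 and Hap5 complex, whose Hap4 subunit activates transcription.

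Levels are given in RPKM, mapped reads scaled to gene length and library size. The steps between the lowest values imply 6180000 to 7130000 mapped reads a library, with 83.4 to 89.9% of those values within 0.15 of a whole read. Members had between 13 implied reads (ATP20) and 12019 (ATP2) in a library. AZF1 followed the labels, at 0.05 and 0.12 RPKM in azf1Δ, 74.0 and 73.5 in AZF1 MoBY, 13.3 and 14.3 in MoBY control and 13.2 and 11.6 in WT. The resistance gene kanR, carried by the cassette and the plasmid, was at 11.8 and 8.17 RPKM in azf1Δ, 36.5 and 40.2 in AZF1 MoBY, 68.6 and 90.5 in MoBY control and 0.20 and 0.35 in WT. Tests are limma moderated tests on log2(RPKM + 1), a scale that understates the change of low genes, with Benjamini-Hochberg adjustment over all genes tested and a call at an adjusted p under 0.05. The p-values measure the spread between 2 libraries a group. In bulk cultures fewer expressing cells and less RNA per cell cannot be told apart, and RPKM gives shares of the mapped reads rather than transcripts per cell.

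The 37 members together made up 2.28 and 2.27% of the summed RPKM in azf1Δ, 1.01 and 0.89% in AZF1 MoBY, 1.12 and 0.98% in MoBY control and 1.73 and 1.74% in WT. The libraries thus fell into an order with azf1Δ highest, WT next and both plasmid groups below, and the plasmid groups overlapped each other. The median member stood at 185 and 177 RPKM in azf1Δ, 61.4 and 50.2 in AZF1 MoBY, 69.1 and 79.9 in MoBY control and 115 and 121 in WT. Within WT the levels spanned 240.3-fold, with COX9, a small membrane subunit of complex IV, highest at 1014 ± 35 RPKM (SD, n = 2), followed by ATP15 at 898 ± 35 and ATP2 at 870.2 ± 21. The external NADH dehydrogenase NDE2 was lowest at 4.22 ± 0.27 RPKM, below NDE1 (13.7 ± 0.47) and ATP20 (25.2 ± 3.0). COX9 and NDE2 held the highest and the lowest place in each of the 4 groups.

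**Figure D1:**
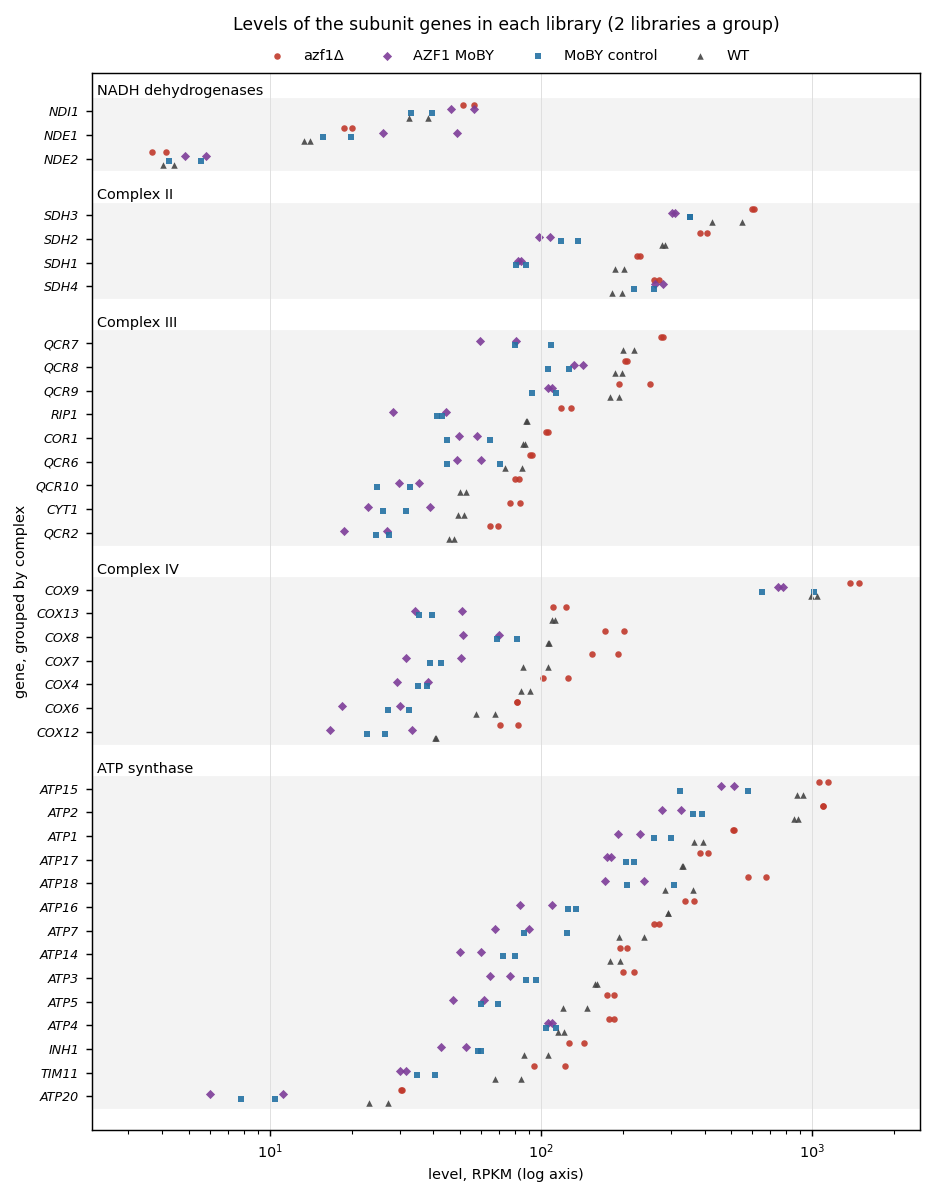
Level of each of the 37 subunit genes in RPKM (horizontal log axis), by complex and, within a complex, by level in WT, with 1 point a library and 2 libraries a group. The azf1Δ points lie to the right of the WT points for 33 genes, and the MoBY control points lie to the left of the WT points for 31.

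Deletion of AZF1 was compared with WT to see what the factor's absence does. Subunit genes of complexes II, III and IV and of the ATP synthase were higher in azf1Δ than in WT: 12 of the 37 members rose, none fell, and 36 had a positive estimate. The background of called genes was 0.942% higher and 0.791% lower of the 5944 genes tested. Both azf1Δ libraries lay above both WT libraries for 33 members and below them for 0, against backgrounds of 30.7% and 17.6%, and the libraries overlapped for ATP14, COX13, NDE2 and QCR9. The median log2 change of the members was 0.41, or 1.33-fold, and that of all genes 0.04. Called members rose by log2 changes of 0.48 to 0.96 (limma, adjusted p = 0.0212 to 0.0447). By complex, 0 of 3 NADH dehydrogenases, 2 of 4 complex II subunits, 4 of 9 of complex III, 4 of 7 of complex IV and 2 of 14 of the ATP synthase were called. Their median log2 changes were 0.47, 0.40, 0.41, 0.49 and 0.36 in the same order. These calls lie close to the threshold: leaving out any 1 of the 4 libraries left 0 of them, and the fit without a variance trend also gave 0, whereas the median stayed between 0.35 and 0.43 when each library was left out.

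The empty plasmid with G418 was compared with WT as the background of the over-expression strain, and here subunit genes were lower in MoBY control. In this comparison 28 of 37 members fell and 0 rose, against backgrounds of 10.6% lower and 13.2% higher among 5991 genes. Both MoBY control libraries lay below both WT libraries for 31 members (background 32.6%) and above them for 2, NDE1 and SDH4 (background 30.4%). The median log2 change of the members was −0.82, or 0.566-fold, and that of all genes −0.02. Called members had log2 changes between −1.54 and −0.44 (limma, adjusted p = 0.000313 to 0.0415), in 8 of 9 complex III subunits, 6 of 7 of complex IV, 12 of 14 of the ATP synthase and 2 of 4 of complex II. The 9 members without a call were NDI1, NDE1, NDE2, SDH3, SDH4, QCR6, COX9, ATP4 and ATP18. With 1 library left out the count was 9 to 16, lowest when WT replicate B was dropped (9), then WT replicate A (12), MoBY control replicate B (14) and MoBY control replicate A (16). This comparison and that of azf1Δ use the same WT libraries, so that a shift of WT moves both.

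The AZF1 plasmid was compared with the empty plasmid, both with G418, to see the effect of added AZF1. The resistance gene kanR was also lower in AZF1 MoBY (−1.02 ± 0.15, limma, adjusted p = 0.011). Added AZF1 and this difference in kanR cannot be told apart here. No member passed the threshold by limma, while 11 had an unadjusted p under 0.05. Of the 6029 genes tested, 10.2% were called higher and 6.17% lower. The median log2 change of the members was −0.12 (all genes 0.00), and it was 0.01 without AZF1 MoBY replicate B and −0.32 without AZF1 MoBY replicate A. Both AZF1 MoBY libraries lay above both MoBY control libraries for 4 members, NDI1, NDE1, SDH4 and QCR8 (background 30.9%), and below them for 10, of which 8 belong to the ATP synthase and 2, SDH2 and SDH3, to complex II (background 28.1%). The AZF1 MoBY duplicates differed from each other in these genes: 33 of 37 members were higher in replicate A, by a median of 0.28 on the log2 scale, against 0.01 for all genes. In a fit over all 8 libraries with 1 common spread, 9 members were called by limma: NDE1 and NDI1 higher, and SDH2, ATP1, ATP2, ATP3, ATP14, ATP16 and ATP17 lower. The shares of all genes given above belong to the fit of 4 libraries. This count has no share of all genes beside it, so it shows nothing particular to the members. In the other groups the median difference of members between duplicates was −0.01 to 0.02.

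**Figure D2:**
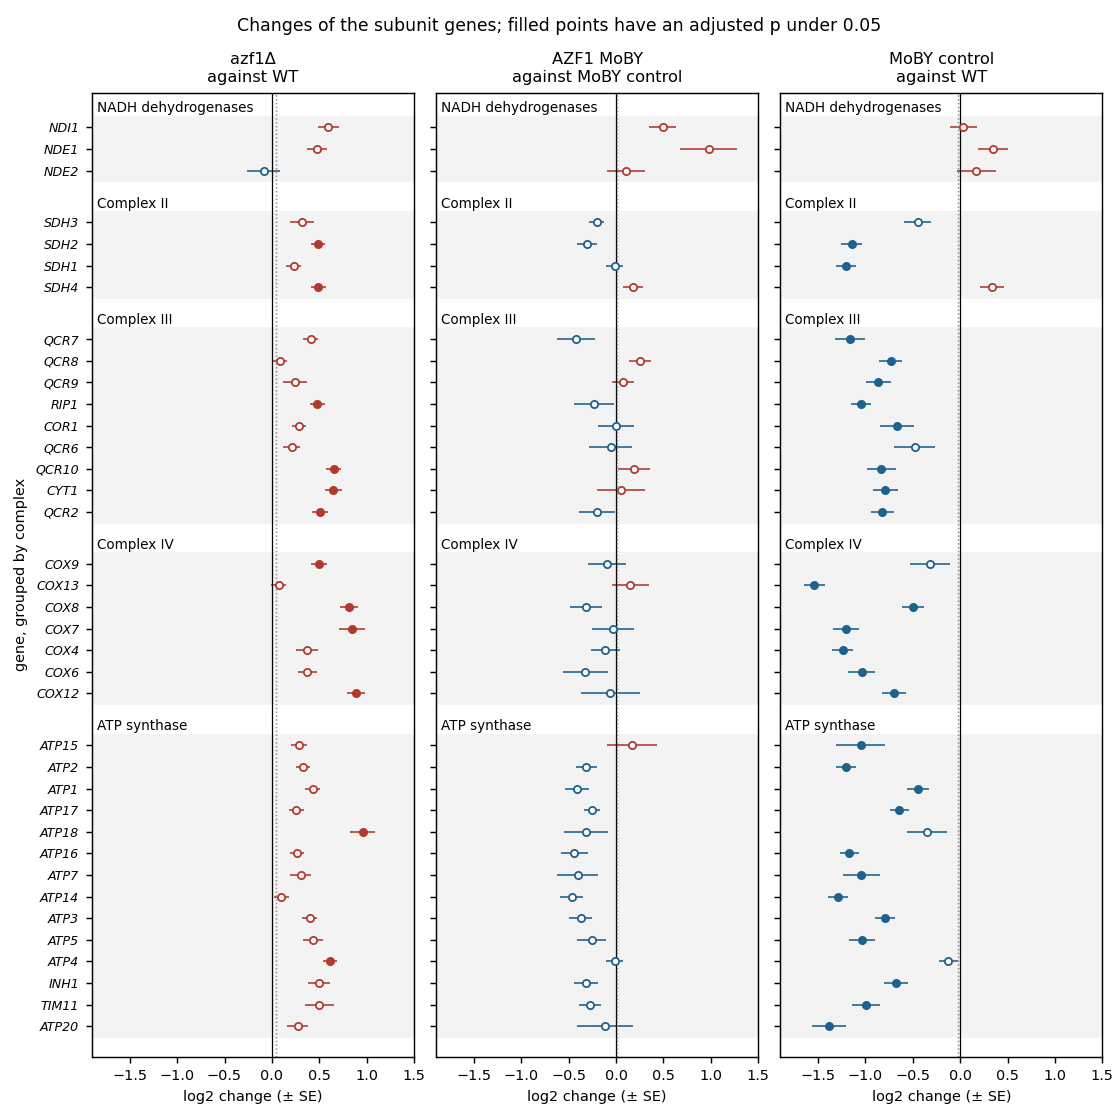
Log2 change with its standard error (horizontal lines) for each subunit gene in the 3 comparisons; filled points have an adjusted p under 0.05 by limma, red is higher and blue lower in the first-named group, and the dotted line is the median of all genes tested. Called genes number 12, all higher, in azf1Δ, 0 in AZF1 MoBY, and 28, all lower, in MoBY control.

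The change with the AZF1 plasmid was then set against the change with the deletion in a fit over all 8 libraries, as (AZF1 MoBY minus MoBY control) minus (azf1Δ minus WT). This difference of effects was below 0 for 13 members by limma and above 0 for none of them, where the backgrounds were 6.8% and 7.9% of 6105 genes. The median was −0.60 over the members and −0.04 over all genes. The ATP synthase held 10 of the 13, with log2 differences down to −1.27, and SDH2, QCR7 and COX8 were the others. The count was 5 without AZF1 MoBY replicate B, when NDE1 was above 0 and 4 members below it, and 6 without azf1Δ replicate A, 7 without azf1Δ replicate B and 8 without WT replicate B.

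None of the 3 NADH dehydrogenases, which feed electrons from NADH into the chain, was called in any of the comparisons as fitted. NDI1, the enzyme that faces the matrix, had 51.3 and 56.5 RPKM in azf1Δ, 56.5 and 46.5 in AZF1 MoBY, 39.4 and 33.1 in MoBY control and 38.3 and 32.4 in WT. It was thus higher in both azf1Δ and AZF1 MoBY libraries than in their own controls, with log2 changes of 0.60 ± 0.11 (SE; limma, adjusted p = 0.0568) and 0.49 ± 0.14 (limma, adjusted p = 0.0749). NDE1, the main enzyme for cytosolic NADH, had 19.97 and 18.8 RPKM in azf1Δ, 48.8 and 26.0 in AZF1 MoBY, 15.7 and 19.8 in MoBY control and 13.4 and 14.0 in WT. AZF1 MoBY replicate A was the highest library and replicate B the next, WT the lowest, and the change of 0.98 ± 0.30 with the AZF1 plasmid had an adjusted p of 0.0836 by limma. NDE2, its paralog, had 3.68 and 4.14 RPKM in azf1Δ, 4.86 and 5.78 in AZF1 MoBY, 5.58 and 4.23 in MoBY control and 4.41 and 4.03 in WT. The groups of NDE2 overlapped in azf1Δ and WT and in both plasmid groups, and its log2 changes in the 3 comparisons of 2 groups ran from −0.09 to 0.17. The ratio of NDE1 to NDE2 was 10.1 and 4.50 in AZF1 MoBY, against 2.81 and 4.69 in MoBY control, so that replicate A alone lay outside the control's range.

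Complex II oxidises succinate to fumarate and belongs to both the citric acid cycle and the chain. SDH1, the flavoprotein subunit, had 226 and 231 RPKM in azf1Δ, 83.9 and 82.1 in AZF1 MoBY, 80.4 and 87.4 in MoBY control and 202 and 187 in WT. All 4 plasmid libraries of SDH1 were far below both WT libraries, and the plasmid groups overlapped (−0.01 ± 0.09, limma, adjusted p = 0.93). The log2 change in MoBY control was −1.21 ± 0.11 (limma, adjusted p = 0.000699). SDH2, the iron-sulfur subunit, had 385 and 407 RPKM in azf1Δ, 108 and 97.7 in AZF1 MoBY, 119 and 136 in MoBY control and 278 and 286 in WT. All 4 groups of SDH2 were separate. It rose by 0.49 ± 0.07 in azf1Δ (limma, adjusted p = 0.0369), fell by 1.14 ± 0.11 in MoBY control (limma, adjusted p = 0.00109), and its difference of effects was −0.80 ± 0.13 (limma, adjusted p = 0.00664).

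SDH3 and SDH4 encode the membrane anchors of complex II. SDH3 had 609 and 596 RPKM in azf1Δ, 311 and 302 in AZF1 MoBY, 352 and 355 in MoBY control and 549 and 425 in WT. The WT duplicates of SDH3 were far apart, and its change in MoBY control, −0.45 ± 0.14, was not called (limma, adjusted p = 0.0714). SDH4 had 272 and 261 RPKM in azf1Δ, 263 and 280.1 in AZF1 MoBY, 219.8 and 261 in MoBY control and 198 and 182 in WT. Both WT libraries of SDH4 lay below the other 6. SDH4 rose by 0.49 ± 0.08 in azf1Δ (limma, adjusted p = 0.0416), and its estimate in MoBY control was 0.33 ± 0.12 (limma, adjusted p = 0.107), where SDH1 and SDH2 fell. The ratio of SDH4 to the geometric mean of SDH1, SDH2 and SDH3 was 0.73 and 0.68 in azf1Δ, 1.87 and 2.085 in AZF1 MoBY, 1.47 and 1.62 in MoBY control and 0.63 and 0.64 in WT. The ratio separated all 4 groups, and it is a description, since SDH4 was set apart after its values were known.

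**Figure D3:**
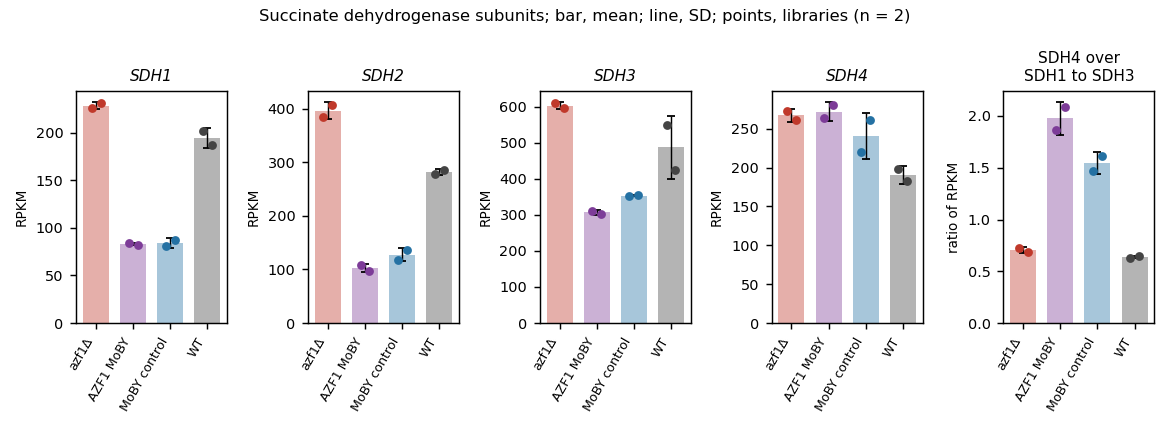
RPKM of SDH1, SDH2, SDH3 and SDH4 and the ratio of SDH4 to the geometric mean of the other 3 subunits, by group (bar, mean; line, SD; points, 2 libraries). SDH1 and SDH2 are lower in both plasmid groups than in WT, SDH4 is not, and the ratio is 1.47 to 2.085 in the plasmid groups and 0.63 to 0.73 in azf1Δ and WT.

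Complex III passes electrons from ubiquinol to cytochrome c. CYT1, the gene of cytochrome c1, had 83.3 and 76.6 RPKM in azf1Δ, 38.9 and 22.9 in AZF1 MoBY, 26.2 and 31.8 in MoBY control and 52.0 and 49.2 in WT. QCR10, a small membrane subunit, had 79.9 and 82.7 RPKM in azf1Δ, 35.5 and 29.9 in AZF1 MoBY, 32.7 and 24.8 in MoBY control and 50.2 and 52.7 in WT. For both genes azf1Δ lay above WT and both plasmid groups below it, with the plasmid groups overlapping. CYT1 rose by 0.65 ± 0.09 (limma, adjusted p = 0.0284) and QCR10 by 0.65 ± 0.08 (limma, adjusted p = 0.0254) in azf1Δ, and in MoBY control they fell by 0.79 ± 0.13 (limma, adjusted p = 0.00843) and 0.83 ± 0.15 (limma, adjusted p = 0.0118). The core subunit QCR2 and RIP1 were the other 2 members of complex III called in azf1Δ, at 0.51 and 0.48.

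The largest falls of complex III in MoBY control were those of QCR7 and RIP1. QCR7, a small subunit on the matrix side, had 280.1 and 276 RPKM in azf1Δ, 80.4 and 59.3 in AZF1 MoBY, 79.9 and 108 in MoBY control and 219.8 and 199 in WT. RIP1, the Rieske iron-sulfur protein, had 118 and 129 RPKM in azf1Δ, 44.6 and 28.4 in AZF1 MoBY, 41.1 and 43.1 in MoBY control and 87.4 and 88.6 in WT. Both genes were lower in all 4 plasmid libraries than in WT, and the changes in MoBY control were −1.16 ± 0.16 (limma, adjusted p = 0.00403) and −1.05 ± 0.10 (limma, adjusted p = 0.0011). QCR8, another small membrane subunit, moved least in azf1Δ, with 203.7 and 206.5 RPKM in azf1Δ, 143 and 132 in AZF1 MoBY, 105 and 126 in MoBY control and 198 and 187 in WT. Its azf1Δ libraries exceeded the higher WT library only slightly (0.09 ± 0.07, limma, adjusted p = 0.579), and it fell by 0.73 ± 0.12 in MoBY control (limma, adjusted p = 0.00809). QCR6, an acidic subunit on the cytochrome c side, moved least in MoBY control, with 90.5 and 92.4 RPKM in azf1Δ, 60.1 and 48.8 in AZF1 MoBY, 44.9 and 70.5 in MoBY control and 85.0 and 73.5 in WT. Its MoBY control duplicates were wide apart and its change of −0.48 ± 0.21 was not called (limma, adjusted p = 0.162). The core subunits COR1 and QCR2 and QCR9 completed the listed members of the complex, with changes in MoBY control of −0.66, −0.82 and −0.86.

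Complex IV reduces oxygen to water. COX12, a subunit exposed to the intermembrane space, rose most in azf1Δ of this complex and had 70.5 and 82.1 RPKM in azf1Δ, 33.4 and 16.6 in AZF1 MoBY, 26.5 and 22.8 in MoBY control and 40.8 and 40.5 in WT. COX7, a membrane subunit, had 154 and 191 RPKM in azf1Δ, 50.6 and 31.6 in AZF1 MoBY, 42.8 and 38.9 in MoBY control and 106 and 85.6 in WT. In both genes azf1Δ was above WT and all plasmid libraries below it, and the AZF1 MoBY duplicates bracketed the MoBY control ones. COX12 rose by 0.89 ± 0.10 (limma, adjusted p = 0.0212) and COX7 by 0.84 ± 0.14 (limma, adjusted p = 0.0435) in azf1Δ, 1.88-fold and 1.80-fold in mean RPKM. COX12 had only 26 implied reads in its lowest library.

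COX13 and COX4 fell most in MoBY control. COX13, a membrane subunit not needed for the core activity, had 123 and 111 RPKM in azf1Δ, 50.9 and 34.3 in AZF1 MoBY, 39.7 and 35.5 in MoBY control and 112 and 109.9 in WT. COX4, a zinc-binding subunit on the matrix side, had 125 and 101 RPKM in azf1Δ, 38.3 and 29.2 in AZF1 MoBY, 37.8 and 35.0 in MoBY control and 83.9 and 90.5 in WT. Neither was called in azf1Δ, where COX13 overlapped WT (0.07 ± 0.08, limma, adjusted p = 0.715). In MoBY control COX13 fell by 1.54 ± 0.11 (limma, adjusted p = 0.000313), to 0.338 of the WT mean, the largest change of any member there, and COX4 fell by 1.24 ± 0.11 (limma, adjusted p = 0.000721). COX9 had 1479 and 1379.6 RPKM in azf1Δ, 776 and 744 in AZF1 MoBY, 1009.9 and 653 in MoBY control and 989 and 1038 in WT. MoBY control overlapped WT for COX9 (−0.32 ± 0.21, limma, adjusted p = 0.323), while azf1Δ exceeded it (0.49 ± 0.08, limma, adjusted p = 0.0447). COX8 rose by 0.81 in azf1Δ and fell by 0.50 in MoBY control, and it was the member of complex IV whose difference of effects was called (−1.12 ± 0.21, limma, adjusted p = 0.0109). COX6, the remaining listed subunit, had changes of 0.37 in azf1Δ, not called, and −1.04 in MoBY control.

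The ATP synthase genes were led in azf1Δ by ATP18 and ATP4. ATP18, a small subunit of the membrane part, had 580.04 and 676 RPKM in azf1Δ, 239 and 172 in AZF1 MoBY, 309 and 206.5 in MoBY control and 362 and 286 in WT. It rose by 0.96 ± 0.13 in azf1Δ, 1.94-fold in mean RPKM (limma, adjusted p = 0.0305), while its MoBY control and WT libraries overlapped (−0.35 ± 0.21, limma, adjusted p = 0.291). ATP4, the b subunit of the peripheral stalk, had 185 and 177 RPKM in azf1Δ, 109 and 105 in AZF1 MoBY, 104 and 113 in MoBY control and 115 and 121 in WT. The 6 libraries outside azf1Δ spanned 104 to 121 RPKM for ATP4. It rose by 0.61 ± 0.07 in azf1Δ (limma, adjusted p = 0.0254), its change in MoBY control of −0.12 ± 0.10 was the smallest of the complex (limma, adjusted p = 0.442), and its difference of effects was −0.63 ± 0.11 (limma, adjusted p = 0.00925).

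ATP20 and ATP14 fell most in MoBY control. ATP20, the g subunit at the dimer interface, had 30.7 and 30.3 RPKM in azf1Δ, 11.2 and 6.02 in AZF1 MoBY, 10.4 and 7.78 in MoBY control and 23.1 and 27.3 in WT. ATP14, the h subunit of the peripheral stalk, had 206.5 and 195 RPKM in azf1Δ, 59.7 and 50.2 in AZF1 MoBY, 72.5 and 79.9 in MoBY control and 179.8 and 195 in WT. The plasmid groups were far below WT for both genes, and for ATP14 both AZF1 MoBY libraries were also below both MoBY control ones. ATP20 fell by 1.38 ± 0.18 (limma, adjusted p = 0.00321) and ATP14 by 1.29 ± 0.11 (limma, adjusted p = 0.000596) in MoBY control. ATP14 moved least of the complex in azf1Δ (0.10 ± 0.08, limma, adjusted p = 0.574) and had the lowest adjusted p of any member with the AZF1 plasmid (−0.47 ± 0.12, limma, adjusted p = 0.0531). INH1, which encodes the inhibitor that blocks ATP hydrolysis by the F1 head, had 144 and 126 RPKM in azf1Δ, 52.7 and 42.5 in AZF1 MoBY, 60.1 and 58.5 in MoBY control and 86.2 and 105 in WT. The ranges of its ratio to the catalytic subunits overlapped in all groups: the ratio to the geometric mean of ATP1 and ATP2 was 0.168 to 0.193 in azf1Δ, 0.184 to 0.191 in AZF1 MoBY, 0.177 to 0.189 in MoBY control and 0.146 to 0.189 in WT. INH1 fell by 0.68 ± 0.13 in MoBY control (limma, adjusted p = 0.0127) and had an estimate of 0.50 ± 0.12 in azf1Δ (limma, adjusted p = 0.108).

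Of the F1 head, ATP1 and ATP2 (alpha and beta) had log2 changes in azf1Δ of 0.43 and 0.33, neither called, and in MoBY control of −0.44 and −1.21, both called. The central stalk genes ATP3, ATP16 and ATP15 changed by −0.79, −1.17 and −1.05 in MoBY control, all called. ATP5 and ATP7 of the peripheral stalk and ATP17 and TIM11 of the membrane part were also called there, at −1.03, −1.04, −0.64 and −0.99. In azf1Δ these 7 genes had estimates between 0.26 and 0.50, none of them called. The 14 ATP synthase genes were not called with the AZF1 plasmid, where 13 had a negative estimate and the median was −0.31.

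Further subunits of complexes III and IV and of the ATP synthase are encoded in mitochondrial DNA, and their transcripts were measured because the libraries were depleted of rRNA rather than selected for poly(A). For all 7 listed genes the lower azf1Δ library exceeded the higher WT one, as it did for 30.7% of all genes tested. By limma 4 rose, with adjusted p between 0.0289 and 0.0424 (0.942% of all genes tested were called higher). They were OLI1 (ATP synthase subunit c) by 0.90 ± 0.14, ATP6 by 0.86 ± 0.13, COX1 by 0.64 ± 0.09, and ATP8. These calls lie close to the threshold. OLI1 had 357 and 443 RPKM in azf1Δ, 109.9 and 90.5 in AZF1 MoBY, 137 and 109.9 in MoBY control and 193 and 236 in WT. With the AZF1 plasmid 3 of the 7 fell (limma; 6.17% of all genes were called lower): COX2 by 0.67 ± 0.13, COX3 by 0.54 ± 0.10 and ATP6 by 0.48 ± 0.11. COX2 had 498 and 495 RPKM in azf1Δ, 168 and 198 in AZF1 MoBY, 267 and 317 in MoBY control and 322 and 407 in WT. In MoBY control 1 of 7 was called, OLI1 with a fall of 0.79 ± 0.15 (limma, adjusted p = 0.0141), where 10.6% of all genes were called lower. The median of the list was −0.18 there, beside −0.82 for the 37 nuclear genes. The difference of effects was called below 0 for 5 of the 7, where 6.8% of all genes were. It was led by ATP6 (−1.34 ± 0.19), OLI1 (−1.19 ± 0.23) and COX2 (−1.13 ± 0.19, limma, adjusted p = 0.0077).

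The HAP genes were measured as the known regulators. HAP4 had 71.5 and 70.5 RPKM in azf1Δ, 23.1 and 20.3 in AZF1 MoBY, 31.8 and 26.2 in MoBY control and 47.8 and 52.3 in WT. The 4 groups of HAP4 did not overlap, and they took the same order as the share of summed RPKM of the members by group mean. HAP4 rose by 0.50 ± 0.08 in azf1Δ (limma, adjusted p = 0.0462) and fell by 0.77 ± 0.14 in MoBY control (limma, adjusted p = 0.00977). Its change with the AZF1 plasmid was −0.40 ± 0.14 (limma, adjusted p = 0.125). The HAP4 call in azf1Δ lies close to the threshold, like those of the members. Its estimate there ran from 0.43 to 0.56 with 1 library left out. The difference of effects of HAP4 was −0.90 (limma, adjusted p = 0.0105), where 6.8% of all genes were called below 0. HAP1, HAP2, HAP3 and HAP5 were called in none of the comparisons, with estimates from −0.49 to 0.41. HAP1, the heme-dependent activator, had 111 and 118 RPKM in azf1Δ, 124 and 127 in AZF1 MoBY, 137 and 115 in MoBY control and 125 and 115 in WT. HAP2, a DNA-binding subunit of the complex, had 8.22 and 6.50 RPKM in azf1Δ, 3.86 and 4.63 in AZF1 MoBY, 5.28 and 6.41 in MoBY control and 9.06 and 8.11 in WT. HAP3 and HAP5 lay between 5.98 and 17.5 RPKM in all libraries. Whether HAP4 has a part in the levels of the subunits was not tested.

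Assembly and translation factors of the same complexes were taken as separate lists. In azf1Δ 0 of 6 genes of the complex II list, 0 of 10 for complex III, 0 of 29 for complex IV, 0 of 13 for the ATP synthase and 0 of 10 of ubiquinone synthesis were called (limma), with 2, 0, 6, 4 and 1 at an unadjusted p under 0.05 and medians between −0.11 and 0.22; the shares of all genes called there were 0.942% higher and 0.791% lower. In MoBY control, where 10.6% of all genes were called lower and 13.2% higher, the complex IV list of 29 had 6 genes lower and 2 higher, led by PET122 (−1.43 ± 0.22), a translational activator of COX3, the copper chaperone COX17 (−1.08 ± 0.28) and the membrane insertase OXA1 (−0.73 ± 0.11). The complex III list had 1 lower, MZM1 (−0.77 ± 0.15). The ATP synthase list of 13 had 2 lower and 3 higher, led by AEP3 (2.35 ± 0.18), ATP22 (1.30 ± 0.12) and FMC1 (−1.02 ± 0.17). AEP3, which stabilises the mitochondrial ATP6 and ATP8 message, had 5.98 and 6.92 RPKM in azf1Δ, 58.1 and 58.5 in AZF1 MoBY, 23.4 and 31.6 in MoBY control and 4.32 and 4.72 in WT. ATP22, a translation factor for ATP6, had 20.7 and 19.6 RPKM in azf1Δ, 91.1 and 89.9 in AZF1 MoBY, 54.2 and 49.5 in MoBY control and 21.3 and 19.6 in WT. Both stepped up in MoBY control over WT and again in AZF1 MoBY over MoBY control with no overlap. ATP6 itself had 234 and 298 RPKM in azf1Δ, 139 and 123 in AZF1 MoBY, 193 and 172 in MoBY control and 155 and 135 in WT.

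With the AZF1 plasmid, where 10.2% of all genes were called higher and 6.17% lower, 3 of 13 genes of the ATP synthase list rose (limma). They were AEP3 (1.07 ± 0.16), INA22 (0.94 ± 0.15) and ATP22 (0.79 ± 0.09). In the difference of effects ATP22 was above 0 (0.81 ± 0.13) and NCA2 below it (−0.70 ± 0.19). Each is 1 of 13, near the 7.9% and 6.8% of all genes called above and below 0 there. Of the complex IV list 4 of 29 rose with the AZF1 plasmid, a share near that of all genes. They were led by COA4 (1.61 ± 0.30), COX20 (0.67 ± 0.13) and COX15 (0.55 ± 0.09), a heme A synthase. The difference of effects was above 0 for 4 of those 29 (7.9% of all genes) and below 0 for 3 (6.8% of all genes). Those above 0 were led by COA4 (1.76 ± 0.42), COX20 (1.01 ± 0.16) and COA3 (0.62 ± 0.16). The complex III list had 1 fall, CBP6 (−0.67 ± 0.15), a factor for cytochrome b synthesis, whose difference of effects was −0.79 ± 0.20. No gene of the complex II list or of ubiquinone synthesis was called there, with 0 and 2 at an unadjusted p under 0.05 by limma. SHH3, a paralog of SDH3, was the 1 called gene of 6 of the complex II list in MoBY control (1.20 ± 0.20, limma, adjusted p = 0.00809). Of all genes 13.2% were called higher there. SHH3 had 1.19 and 1.09 RPKM in azf1Δ, 10.1 and 6.54 in AZF1 MoBY, 6.15 and 5.35 in MoBY control and 1.91 and 1.95 in WT. SHH3 was thus higher in every plasmid library than in any other, where SDH3 was lower, at a far lower level than SDH3. YJL045W, a paralog of SDH1, passed the filter of low values only in the fit over all libraries. In ubiquinone synthesis 1 gene of 10, COQ4, rose in MoBY control (0.76 ± 0.12), beside 13.2% of all genes.

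Among carriers, alternative isoforms and associated proteins, 6 of 16 fell in MoBY control and 0 rose (limma; 10.6% of all genes were called lower), led by the complex IV subunit COX26 (−2.25 ± 0.27), the glycerol-3-phosphate dehydrogenase GUT2 (−1.42 ± 0.14) and COX5B (−1.01 ± 0.13), the isoform used at low oxygen. COX26 had 34.1 and 49.2 RPKM in azf1Δ, 4.82 and 3.20 in AZF1 MoBY, 5.06 and 9.78 in MoBY control and 34.5 and 40.8 in WT. COX5A, the isoform used with oxygen, had 71.0 and 72.5 RPKM in azf1Δ, 21.4 and 21.9 in AZF1 MoBY, 29.4 and 28.4 in MoBY control and 41.9 and 55.3 in WT, and its difference of effects was −0.97 ± 0.18 (limma, adjusted p = 0.0102). COX5B had 46.2 and 40.5 RPKM in azf1Δ, 22.8 and 20.7 in AZF1 MoBY, 23.1 and 21.9 in MoBY control and 42.8 and 49.9 in WT. Both isoforms were thus low in the plasmid groups, while COX5A was also higher in azf1Δ than in WT and COX5B overlapped WT there. The mitochondrial phosphate carrier MIR1 was the 1 gene of these 16 that rose in azf1Δ (0.68 ± 0.11, limma, adjusted p = 0.0391), where 0.942% of all genes did. The MIR1 call lies close to the threshold, and its estimate ran from 0.54 to 0.81 with 1 library left out. RCF2, a factor of respiratory supercomplexes, was the 1 that rose with the AZF1 plasmid (0.55 ± 0.08, limma, adjusted p = 0.0119). That is 6.25% of the list, below the 10.2% of all genes called higher there. Its difference of effects was 0.90 ± 0.12. RCF2 above 0 and COX5A below it were the only calls of this list in that difference, beside 7.9% and 6.8% of all genes.

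**Figure D4:**
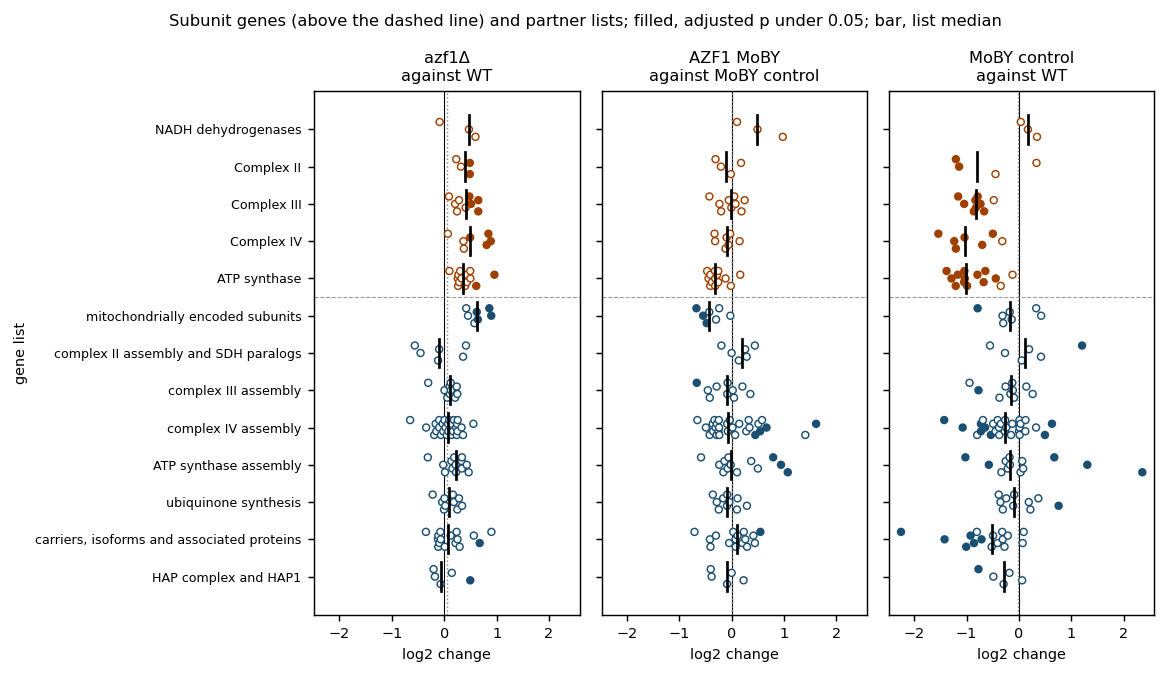
Log2 changes in the 3 comparisons for the subunit genes by complex (above the dashed line) and for partner lists (below it), with 1 point a gene, filled where the adjusted p by limma is under 0.05, a bar at the list's median and a dotted line at the median of all genes tested. In MoBY control the medians of complexes II, III and IV and the ATP synthase lie between −1.04 and −0.80, and those of the assembly lists between −0.27 and 0.12.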

How the data were processed

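RNA-seq was done on 8 libraries in 4 groups of 2. The authors used Trimmomatic 0.3.0 to trim the single-end reads, aligned them with Bowtie2 2.2.2 to the Y22-3 genome, counted reads per gene with HTSeq 0.6.0 and deposited log2 RPKM values to 2 decimals, in 1 table of 6328 genes, with no further scaling between libraries. The strand setting of the counting is not given in the sources used here, so that reads of overlapping antisense genes may not be told apart.

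Values were returned to RPKM and tested with limma 3.58.1 in R 4.3.3 on log2(RPKM + 1) with a variance trend, keeping genes that reached 1 RPKM in 2 or more fitted libraries, with Benjamini-Hochberg adjustment over all genes tested and a threshold of 0.05. All 37 members passed this filter in every comparison. Each pair of groups was fitted on its own 4 libraries, and the difference of effects on all 8. The fit was tested on simulated data with log2 changes of 1 and 2 only. Smaller changes, such as those called in azf1Δ, were not covered. Implied reads used RefSeq R64 gene lengths, and no coordinates were used. Duplicate columns differed in 6080 to 6224 genes, so none was a copy.

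Members and lists were chosen with earlier results of these data known. Values in each library are given for NDE1, NDE2, SDH1 to SDH4, INH1 and, in each complex, the 2 members that changed most and the 1 that changed least in azf1Δ and in MoBY control, each against WT. From partner lists, all HAP genes and up to 3 called genes per comparison with the largest change are named, and OLI1, COX2, ATP6, AEP3, ATP22, SHH3, COX26, COX5A and COX5B are given by library, a choice made after their values were seen. Alternatives were pseudocount 0.1, values as deposited, no filter, a filter of 5 RPKM, median-ratio rescaling, no variance trend, all 8 libraries, a replicate block, a threshold of 0.01 and each library left out. The letters A and B were not taken as pairs. Differences between duplicates correlated across 5646 genes at −0.107 to 0.0113 between groups, and no label ties a letter to a shared day. Whether the samples of a letter shared a day is not known.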

Additional observations from a re-analysis of the deposited data

How the results depend on the processing

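The median log2 change of the members moved by less than the SD of the libraries' own member medians, combined over the groups compared, under every alternative run; with the AZF1 plasmid that SD was 0.25, and the median ran from −0.32 to 0.01 with 1 library left out. The count of called members in azf1Δ, 12 as reported, was 0 without the filter on low values, 5 after median-ratio rescaling, 0 without a variance trend, 3 with all 8 libraries, 0 at a threshold of 0.01, and 0 to 0 with 1 library left out; it was 12 to 14 with the other pseudocount, the deposited values and the filter of 5 RPKM. With the AZF1 plasmid the count of 0 became 1 with the filter of 5 RPKM (ATP14) and 9 with all 8 libraries. In MoBY control the count of 28 was 9 to 16 with 1 library left out and 20 to 29 otherwise. For the difference of effects the count of 13 was 6 without a variance trend, 2 at a threshold of 0.01 and 5 to 18 with 1 library left out. The cause of these shifts was not tested. The left-out fits also hold fewer samples, and in them the lone library is assumed to vary like the others.

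With the replicate letters as a block the count was 0 in azf1Δ and 0 with the AZF1 plasmid. It was 29 in MoBY control and 10 for the difference of effects. No label ties the letters to a shared day. A crossed block, added after seeing the data, gave 2 in azf1Δ.

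With 1 library left out, the change turned sign for 1 of the 37 members in azf1Δ, 18 with the AZF1 plasmid, 1 in MoBY control and 6 in the difference of effects. Of the changes given above, those that turned sign, none of them called, were COX13 (−0.0050 to 0.14) and HAP5 (−0.15 to 0.44) in azf1Δ; NDE2 (−0.0626 to 0.27), SDH1 (−0.0741 to 0.0445), HAP1 (−0.13 to 0.13), HAP3 (−0.0188 to 0.47) and HAP5 (−0.24 to 0.0691) with the AZF1 plasmid; and NDI1 (−0.0876 to 0.16), HAP1 (−0.0694 to 0.19) and HAP5 (−0.48 to 0.11) in MoBY control. After rescaling, 4 members turned sign with the AZF1 plasmid (ATP4, COR1, COX7 and SDH1, the last at 0.0263), HAP1 was at 0.0412 there, and HAP1 at 0.00 on the deposited values. Depth limits ATP20 and COX12 most, with 13 and 26 implied reads in their lowest libraries.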
